A study of Mus musculus with 30 samples.

Results

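The 10 cadherin genes Cdh1, Cdh2, Cdh3, Cdh4, Cdh6, Cdh10, Cdh11, Cdh13, Cdh15 and Cdh19 were chosen by symbol, with their differences between tumor lines already known, and all 10 were found among the 48440 genes of the count table. They were followed in 30 fibrosarcomas grown in C57BL/6 mice from 5 cell lines, each derived from 1 primary tumor induced with the carcinogen methylcholanthrene (MCA), and hematopoietic cells were removed from the tumor suspensions with CD45 beads before RNA extraction. MCA943 gave 4 tumors and MCA969 gave 8, and the study places both in its non-sensitive class, by the survival of grafted mice with and without depletion of NK1.1+ cells. It places in the sensitive class MCA948 (8 tumors), MCA970 (6) and MCA972 (4). The strain label reads Ncr1Cre for MCA943 and Ncr1Cre R26DTA for the other 4 lines. Ncr1Cre is active in cells that express the NK cell receptor NKp46, and R26DTA adds a diphtheria toxin that kills the cells in which the Cre is active. Strain and line cannot be told apart for MCA943. The labels themselves do not say whether the strain is that of the first tumor or of the recipient. In the study first tumors were induced in mice of both genotypes, and the derived lines were grafted into C57BL/6 mice. The sensitivity label of the MCA969 tumors W-1D and W-2D is the opposite of that of the other 6. Sample titles also carry a letter, W or a, whose meaning is not given, and 1 MCA972 title has none.

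Classical cadherins are calcium-dependent adhesion proteins that span the membrane and bind a cadherin on the neighbouring cell. Their cytoplasmic tail holds p120-catenin and beta-catenin, and beta-catenin connects to actin through alpha-catenin. Epithelia are held together mainly by the type I member E-cadherin, while fibroblasts and sarcomas typically carry N-cadherin and the type II member cadherin-11. E-cadherin is also a ligand of KLRG1 and of the integrin alphaE beta7, receptors that lymphocytes carry. Cdh13 is grouped with the others here by symbol, but T-cadherin has a lipid anchor in place of the membrane span and tail.

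The 5 genes Cdh1, Cdh3, Cdh11, Cdh13 and Cdh15 lie on chromosome 8, Cdh6 and Cdh10 lie on chromosome 15, Cdh19 on chromosome 1 and Cdh4 on chromosome 2 (GRCm38). Cdh3 (chr8:106510891-106557297) and Cdh1 (chr8:106603351-106670246) are neighbours on the plus strand with 46053 bases between them. No exon of the 10 genes overlapped an exon of another gene. RefSeq promoters on GRCm38.p6, from 250 bases before to 50 after the gene's start, were held for 3 of the 10. They are shown because Cdh6 and Cdh10 share a chromosome and were both near 0 in MCA943 and MCA948, and because Cdh15 is a known gene of the muscle programme, whose factors bind CANNTG. Capitals mark each CANNTG, a motif that reads the same on both strands. The starts are those of RefSeq, and the windows of Cdh10 and Cdh15 lie downstream of the GENCODE starts of these genes (18818947 and 122847966), within the genes. The windows are chr15:13173626-13173925 on the minus strand for Cdh6, chr15:18820079-18820378 on the plus strand for Cdh10 and chr8:122848124-122848423 on the plus strand for Cdh15.
Cdh6: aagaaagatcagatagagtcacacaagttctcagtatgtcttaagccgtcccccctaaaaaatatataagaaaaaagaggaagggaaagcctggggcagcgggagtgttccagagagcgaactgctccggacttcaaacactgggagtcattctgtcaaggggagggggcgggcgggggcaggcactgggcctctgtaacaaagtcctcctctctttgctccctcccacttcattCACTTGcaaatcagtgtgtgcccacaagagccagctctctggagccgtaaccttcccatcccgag
Cdh10: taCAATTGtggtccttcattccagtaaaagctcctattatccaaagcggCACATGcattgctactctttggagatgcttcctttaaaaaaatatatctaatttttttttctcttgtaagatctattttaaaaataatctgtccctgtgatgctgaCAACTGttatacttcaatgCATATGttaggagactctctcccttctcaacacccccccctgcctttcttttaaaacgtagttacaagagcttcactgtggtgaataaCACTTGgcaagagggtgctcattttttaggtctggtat
Cdh15: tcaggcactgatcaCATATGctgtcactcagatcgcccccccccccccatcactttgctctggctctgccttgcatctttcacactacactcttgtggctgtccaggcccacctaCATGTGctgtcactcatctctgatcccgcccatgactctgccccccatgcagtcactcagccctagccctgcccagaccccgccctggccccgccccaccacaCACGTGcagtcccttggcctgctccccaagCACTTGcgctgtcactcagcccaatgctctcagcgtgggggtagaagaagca

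The Cdh10 window held 5 CANNTG and the Cdh15 window 4, whereas the Cdh6 window held 1. Of all 32851 promoters of this length, 2.1% held at least 5, 6.49% at least 4 and 72.3% at least 1. The form CACCTG, read on both strands, which the E-cadherin repressors are known to bind, was in none of the 3 windows and in 20.2% of all promoters.

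The tumors had totals of 27745104 to 46537062 gene counts, and levels are given as CPM, counts scaled to library size with TMM factors. Up to 3 counts were read as not above 0, which corresponded to 0.0781 to 0.0887 CPM in the 5 lines. Of the 10 genes, 9 passed the filter on low counts. Mesenchymal markers (collagens, vimentin, fibronectin, Thy1 and PDGF receptors) summed to 14586 to 76191 CPM, whereas 8 leukocyte markers summed to 1.45 to 94.2 CPM and 8 keratinocyte markers to 1.69 to 10.1 CPM. Fewer cells of a type and less RNA per cell cannot be told apart in these bulk samples.

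Among the type I genes, Cdh1 encodes E-cadherin. Its level in MCA943 was 6.81, 4.07, 3.48 and 3.94 CPM (mean 4.58 ± 1.51, SD, n = 4), and in MCA972 it was 0.682, 0.807, 0.585 and 1.49 CPM. The lowest, median and highest values were 0.0611, 0.205 and 1.30 CPM in MCA948, 0.0619, 0.321 and 0.635 CPM in MCA969, and 0.150, 0.794 and 1.53 CPM in MCA970. All 4 MCA943 tumors were above all 26 others, and the other lines overlapped each neighbour in the order of levels. The mean in MCA943 was 14.4-fold that in MCA969, the lowest line. Simple epithelial markers did not follow this order, since the sum of Epcam, Krt8, Krt18, Krt19, Cldn4 and Cldn7 was 3.39 to 6.05 CPM in MCA943 and 351 to 1192 CPM in MCA969. Their part in the levels of Cdh1 was not tested.

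Cdh2 (chromosome 18) encodes N-cadherin. MCA943 had 32.7, 35.6, 33.8 and 30.8 CPM and MCA972 had 72.6, 89.2, 93.1 and 111 CPM. The lowest, median and highest values were 69.0, 75.1 and 111 CPM in MCA948, 53.1, 83.0 and 102 CPM in MCA969, and 72.9, 102 and 118 CPM in MCA970. MCA943 thus lay below every other tumor, and the remaining 4 lines overlapped. The range of line means was 2.99-fold, the smallest among the 9 genes that passed the filter.

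Cdh3 encodes P-cadherin, best known from basal epithelium and hair follicles. MCA943 had 14.3, 11.1, 12.2 and 15.97 CPM, and MCA969 had 8.33, 15.1 and 26.2 CPM as its lowest, median and highest values. In the sensitive lines the values were 0.983, 0.807, 0.835 and 1.17 CPM in MCA972, 0.101, 0.695 and 1.22 CPM (lowest, median and highest) in MCA948, and 0.580, 0.748 and 1.58 CPM in MCA970. The 12 tumors of MCA943 and MCA969 overlapped each other and all lay above the other 18, as for 0.777% of all genes. Within both lines the counts were 269 to 1014 per tumor. The neighbouring Cdh1 did not share this pattern, being low in MCA969, where the ratio of Cdh3 to Cdh1 per kb had a median of 61.8 against 3.59 in MCA943. Basal keratins were near 0 in both lines, with mean levels of Krt5 of 0.108 and 0.357 CPM and of Krt14 of 0.221 and 0.409 CPM in MCA943 and MCA969.

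Cdh4, which encodes R-cadherin, had 16 counts in all 30 tumors together and at most 2 in any tumor, with 17 tumors at 0. It did not pass the filter and no level is given. Cdh15 encodes M-cadherin of muscle precursors. It reached 0.593, 1.46 and 2.94 CPM (lowest, median and highest) in MCA969, 0.209 to 0.355 CPM in MCA972 and 0.189 to 0.345 CPM in MCA943, and its highest count was 95. In MCA948 and MCA970 all 14 tumors had at most 2 counts. The 8 MCA969 tumors lay above all others, and their mean was at least 16.9-fold that in MCA948. Pax7, Myod1 and Myog had at most 1 count in any tumor, and Myf5 at most 9.

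The type II genes follow. Cdh11 encodes cadherin-11 of mesenchymal cells. MCA943 had 557, 584, 521 and 654 CPM and MCA972 had 137, 167, 236 and 147 CPM. The lowest, median and highest values were 324, 452 and 529 CPM in MCA970 and 106, 171 and 254 CPM in MCA969. MCA948 stood apart, with 1.95, 2.38, 2.76, 3.85, 10.01, 15.4, 17.6 and 13.3 CPM, all below every tumor of the other lines. The mean in MCA943 was 68.8-fold that in MCA948. The mesenchymal marker sum was also lowest there, with a median of 17916 CPM against 71459 CPM in MCA943, but the MCA969 tumors began at 17231 CPM. Their part in the levels of Cdh11 was not tested.

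Cdh19 is known from Schwann cells and their precursors. It was at 38.1, 29.0, 39.3 and 38.2 CPM in MCA972 and at 2.87, 4.74 and 5.77 CPM (lowest, median and highest) in MCA970. The other 20 tumors had at most 6 counts, or 0.196 CPM. The 3 levels did not overlap, and the MCA972 mean was at least 421-fold that in MCA969. The Schwann cell factor Sox10 had at most 4 counts in any tumor, and the Schwann marker sum was highest in MCA943 (45.6 to 51.9 CPM), where its largest part was Scn7a with a mean of 43.0 CPM and where Cdh19 was near 0.

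Cdh10, a type II gene best known from brain, reached 24.8, 22.5, 33.6 and 17.5 CPM in MCA972. The lowest, median and highest values were 0.0619, 2.66 and 10.7 CPM in MCA969 and 0.368, 2.33 and 5.20 CPM in MCA970. MCA943 and MCA948 had at most 6 counts per tumor. MCA972 lay above all other tumors, MCA969 and MCA970 overlapped, and the mean of MCA972 was at least 303-fold that of MCA943.

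Cdh6 encodes K-cadherin of the developing kidney. It was at 0.792, 0.489, 1.89 and 0.626 CPM in MCA972, at a median of 0.925 CPM (lowest 0.479) in MCA970 and at 0.0619 to 0.502 CPM in MCA969. In MCA943 it had 3 counts in 1 tumor and 0 in the other 3, and in MCA948 it was at 0 in 6 of 8 tumors. MCA972, MCA970 and MCA969 overlapped in part. The mean in MCA972 was at least 11.3-fold that in MCA948.

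Cdh13 encodes T-cadherin, known from vessels and as a receptor for adiponectin. MCA972 was lowest at 4.86, 5.92, 10.8 and 6.65 CPM, and MCA943 had 25.2, 18.6, 27.7 and 23.2 CPM. The lowest, median and highest values were 40.8, 56.3 and 108 CPM in MCA948, 49.2, 68.1 and 102 CPM in MCA969, and 43.0, 60.5 and 121 CPM in MCA970. The latter 3 lines overlapped, MCA943 lay below them and MCA972 below MCA943. The mean of MCA969 was 9.89-fold that of MCA972. Medians of the endothelial marker sum were 80.0 CPM in MCA972, 80.4 CPM in MCA943, 87.4 CPM in MCA948, 143 CPM in MCA969 and 495 CPM in MCA970. The first 3 lines overlapped, at 55.0 to 138, 66.7 to 138 and 23.6 to 380 CPM. The lowest single sums were in MCA948, where Cdh13 was not low. By line medians, both the sum and Cdh13 rose from MCA972 to MCA943 to MCA948, and both were highest in MCA969 and MCA970. Cdh5 is part of this sum and was at 211 to 252 CPM in MCA970. The part of the endothelial markers in the levels of Cdh13 was not tested.

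**Figure D1:**
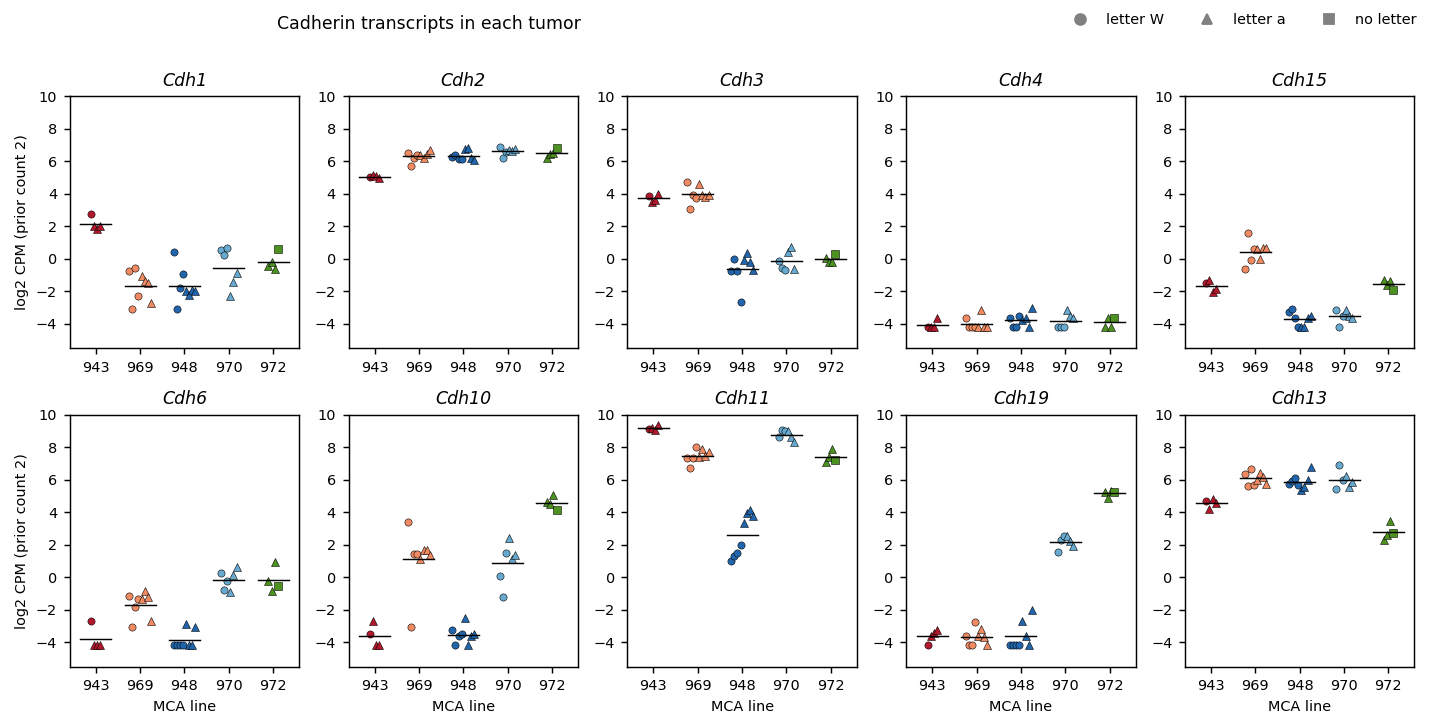
Log2 CPM (prior count 2) of the 10 genes by MCA line, with 1 point per tumor, bars at the line mean, and circles, triangles and squares for title letters W, a and none. Cdh3 is high in MCA943 and MCA969, Cdh11 is low in MCA948, Cdh10 and Cdh19 are highest in MCA972, and Cdh4 is at the floor throughout.

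Levels of different genes were compared only per kb of the length given in the deposited table. Cdh11 ranked first of the 10 in 4 lines and made up 85.8% of their summed level per kb in MCA943, 70.9% in MCA970, 48.9% in MCA969 and 44.8% in MCA972. In MCA948 its share was 5.55%, behind Cdh2 with 60.5% and Cdh13 with 32.3%. The summed level per kb was 17.02 ± 2.35 (SD, n = 8) CPM per kb in MCA948, with a highest tumor at 20.1, and the lowest tumor of any other line was at 26.1. Cdh2 exceeded Cdh1 per kb in every tumor, with a median ratio of 4.69 in MCA943 and of 61.5 to 200.4 in the other lines. With the longest transcript as the length, Cdh11 had 86.3% in MCA943 and 4.61% in MCA948. The length in the table for Cdh6, 2632 bases, is shorter than its 9024 annotated exonic bases. Reads in the remaining bases may not have been counted, so its CPM may be too low. Its level per kb over the whole annotation is therefore not known.

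**Figure D2:**
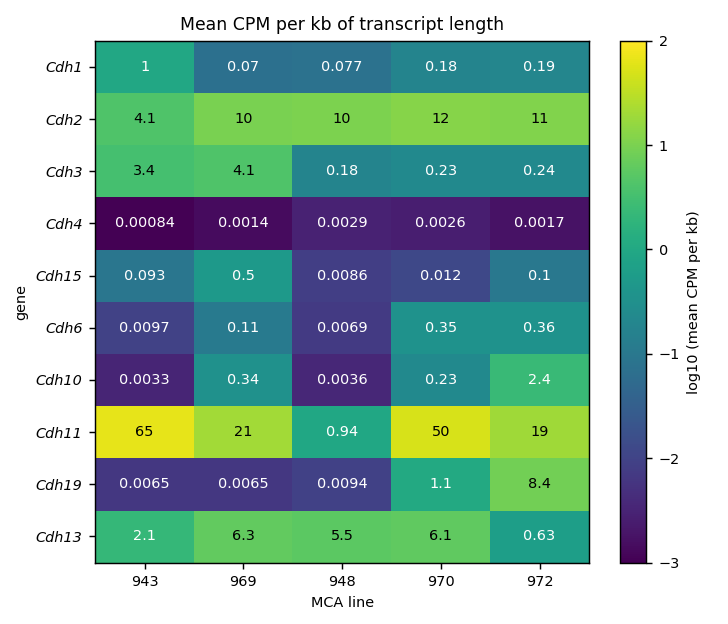
Mean CPM per kb for each gene (rows) and MCA line (columns), with the value printed in each cell and colour on a log10 scale. Cdh11 is the largest value in every column except MCA948, where Cdh2 and Cdh13 are larger.

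The study set non-sensitive against sensitive lines, which gives 6 comparisons of MCA943 or MCA969 with MCA948, MCA970 or MCA972. They share tumors and were used to choose the 10 genes, so the following counts are a description. A gene was called in edgeR's quasi-likelihood fit at an adjusted p-value under 0.05 and a log2 fold change of at least 1 in either direction. MCA943 against MCA948 called 4 of the 9 cadherins higher and 2 lower (17.7% and 11.3% of all genes), against MCA970 3 higher and 5 lower (12.6% and 14.8%), and against MCA972 4 higher and 4 lower (12.2% and 13.4%). MCA969 against MCA948 called 5 higher and 0 lower (16.8% and 3.91%), against MCA970 2 higher and 4 lower (10.7% and 10.7%), and against MCA972 3 higher and 4 lower (10.3% and 10.3%). The median log2 fold change of the 9 ran from -1.52 to 3.66, and that of all 16862 genes from -0.01 to 0.04.

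Cdh3 was called higher in all 6 comparisons, with log2 fold changes of 3.81 to 4.53, as were 0.652% of all genes. No cadherin was lower in all 6, as were 0.225% of all genes. Cdh15 was called higher in 5 comparisons and had a log2 fold change of -0.12 (SE 0.46) between MCA943 and MCA972. Cdh19 was called lower in the 4 comparisons with MCA970 or MCA972. Cdh1 was higher in the 3 comparisons of MCA943 and lower in 2 of MCA969, so the non-sensitive lines went in opposite directions. Cdh2 was called lower in the 3 comparisons of MCA943 and in none of MCA969.

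The library numbers of the samples form 3 runs, here called blocks, which may be batches, and in 4 of the 6 comparisons the lines share a block. Within a shared block the log2 fold change of Cdh3 was 4.09 (MCA969 against MCA972), 4.23 (MCA969 against MCA970), 4.64 (MCA969 against MCA948) and 4.19 (MCA943 against MCA948). The call of Cdh3 was lost in MCA969 against MCA948, where block 2 holds 2 tumors of each line (SE 0.73). Both MCA969 tumors of block 2 are those labelled sensitive, W-1D and W-2D, also in the value against MCA970. The log2 fold change of Cdh11 between MCA969 and MCA948 was 3.12 within block 2 and 4.44 over all tumors. Both MCA948 tumors of block 2 carry the letter a, and both MCA969 tumors the letter W. Cdh11 was at 17.6 and 13.3 CPM in these MCA948 tumors. In block 3 it was at 10.01 and 15.4 CPM in the a tumors of MCA948 and at most 3.85 CPM in its W tumors. The part of the letters in this difference was not tested. MCA943 shares no block with MCA970 or MCA972, and with the block as a covariate 5 in place of 8 cadherins were called in each of these comparisons.

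The tumor MCA969 W-2D stood apart from its line. It had 53.1 CPM of Cdh2 where the other 7 had 74.4 to 102 CPM, 8.33 CPM of Cdh3 (others 13.3 to 26.2 CPM), 0.0619 CPM of Cdh10 (others 2.15 to 10.7 CPM) and 106 CPM of Cdh11 (others 159 to 254 CPM). It was highest for Cdh15, at 2.94 CPM against 0.593 to 1.54 CPM. Without it the MCA969 means were 85.4 ± 9.85, 17.6 ± 5.40, 3.85 ± 3.02, 194 ± 39.2 and 1.20 ± 0.384 CPM (SD, n = 7) for Cdh2, Cdh3, Cdh10, Cdh11 and Cdh15.

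The partners of the cadherins were tested between lines in the same fit, in which 20.6% to 29% of all genes were called per comparison in either direction. Of the 11 catenins and linked proteins, 10 passed the filter. Jup encodes plakoglobin, a catenin of desmosomes and adherens junctions, and rose in all 6 comparisons (log2 fold changes of 1.26 to 3.93, edgeR adjusted p of at most 1.60e-05). Its mean level was 213 ± 21.5 CPM (n = 4) in MCA943 and 52.6 ± 14.96 CPM (n = 8) in MCA969, against 13.9 ± 2.28 CPM (n = 4) in MCA972, 19.9 ± 6.51 CPM (n = 8) in MCA948 and a median of 25.5 CPM in MCA970. MCA943 lay above all other tumors, and the MCA969 values of 30.1 to 78.4 CPM lay above all tumors of the sensitive lines, which reached 28.8 CPM. Jup was on the list by function, but its pattern was known beforehand.

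The main catenins Ctnnb1 (beta), Ctnna1 (alpha) and Ctnnd1 (p120) were not called in any of the 6. Their log2 fold changes lay between -0.50 and 0.53, under the limit on the fold. Ctnnd1 was nevertheless lower in the non-sensitive line in all 6 (-0.50 to -0.20, edgeR adjusted p of at most 0.0184). Ctnnb1 and Ctnna1 went in both directions, such as Ctnnb1 in MCA969 against MCA970 (0.53, edgeR adjusted p 5.60e-09). The neural catenins had larger fold changes. Ctnna2 was called in 4 comparisons, 2 in each direction. Its call in MCA943 against MCA948 rests on means of 0.0468 and 0.00312 CPM, both under the floor of 3 counts. Its means were 1.56 CPM in MCA969, 2.07 in MCA970 and 1.72 in MCA972. Ctnnd2, which encodes delta-catenin, was called higher in 1 comparison and lower in 3. Mean levels of Ctnnd2 were 8.37 CPM in MCA972, 1.92 in MCA969, 0.852 in MCA970, 0.146 in MCA943 and 0.0333 in MCA948. The median log2 fold change of the 10 catenins and linked proteins ran from -0.36 to 0.10.

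Of the 9 enzymes that process cadherins, all passed the filter and 0 to 3 were called per comparison, which at these shares is no result about the list. Pcsk5, a proprotein convertase, was lower in 4 comparisons and Pcsk6 in 2, and the sheddase Adam10 was called in none (log2 fold changes of -0.50 to 0.23). All 7 E-cadherin repressors passed. Twist2 was higher in MCA969 than in MCA948 and MCA972 (1.21 and 1.64, edgeR adjusted p 2.53e-08 and 2.35e-08), Snai2 was lower in MCA969 than in MCA972 (-1.28, edgeR adjusted p 1.00e-08), and Snai1, Zeb1, Zeb2, Twist1 and Tcf3 were called in none. Smaller differences lay under the limit on the fold, such as Zeb1 and Snai2 in MCA943 against MCA948 (0.61 and 0.57, edgeR adjusted p 5.45e-06 and 0.000919).

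Of 5 epithelial regulators 2 passed the filter. Esrp2, a splicing regulator of epithelia, was higher in MCA969 than in each sensitive line (2.74 to 2.92 on the log2 scale). Grhl2, an activator of Cdh1 in epithelia, was lower in 4 comparisons, and its mean in MCA943 was 0.0123 CPM, under the floor of 3 counts. Its means were 0.425 CPM in MCA948, 0.138 in MCA969, 0.104 in MCA972 and 0.0925 in MCA970, the last 2 near that floor. Of the receptors, Itgb7 was at 12.4 CPM in MCA943, 42.5 in MCA948, 35.4 in MCA969, 2.501 in MCA970 and 2.41 in MCA972, and was called in 5 comparisons, 4 of them higher. Klrg1 and Itgae stayed under 1 CPM in the mean of every line.

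The title letters were not used to choose the cadherins and could be tested, over the 26 tumors of the 4 lines that hold both letters, with the line in the model. W against a called 45 of 16557 genes (0.272%), 35 higher and 10 lower with W, at an edgeR adjusted p under 0.05. Of the cadherins 0 were called, and DESeq2 and limma-voom also called 0. At an unadjusted p under 0.05 there were 3 (Cdh1, Cdh2 and Cdh11), against 7.35% of all genes. The largest difference was that of Cdh1, 1.15 ± 0.36 (SE) on the log2 scale, with an edgeR adjusted p of 0.322.

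Whether the letter difference itself varied between lines was tested by the interaction of line and letter. It was called for 3 genes (0.0181%), Wnt10a, Tmem159 and Cdh11, each with an edgeR adjusted p of 0.00641. In MCA948 Cdh11 was at 1.95, 2.38, 2.76 and 3.85 CPM in the 4 W tumors and at 10.01, 15.4, 17.6 and 13.3 CPM in the 4 a tumors. The groups did not overlap, with means of 2.74 ± 0.816 and 14.1 ± 3.25 CPM (SD). The a tumors thus had 5.15-fold more (exact permutation test, two-sided, p = 0.0286, the smallest that 4 against 4 can give). The interaction on these same tumors had already singled out Cdh11, so this p-value is no separate evidence. W tumors lay wholly below a tumors in this line for 3.74% of all genes. In MCA969 the log2 difference of W from a was -0.27 (exact permutation p = 0.4) and in MCA970 it was 0.26 (exact permutation p = 0.2), with overlapping groups in both. MCA943 has 1 W tumor.

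The 4 MCA948 W tumors are all from block 3 and 2 of the 4 a tumors are from block 2. Within block 3 the difference was -2.21 on the log2 scale, 4 against 2 tumors (exact permutation p = 0.0667, the smallest possible). With the block as a covariate the interaction had an edgeR adjusted p of 0.0853, and without the tumor MCA948 W-2D one of 0.0530. Marker sums also differed between the letters in this line, with overlap, the mesenchymal sum being 14586 to 18241 CPM with W and 17590 to 21253 CPM with a, and the endothelial sum 23.6 to 113 CPM with W and 45.6 to 380 CPM with a. Their part in the Cdh11 difference was not tested.

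**Figure D3:**
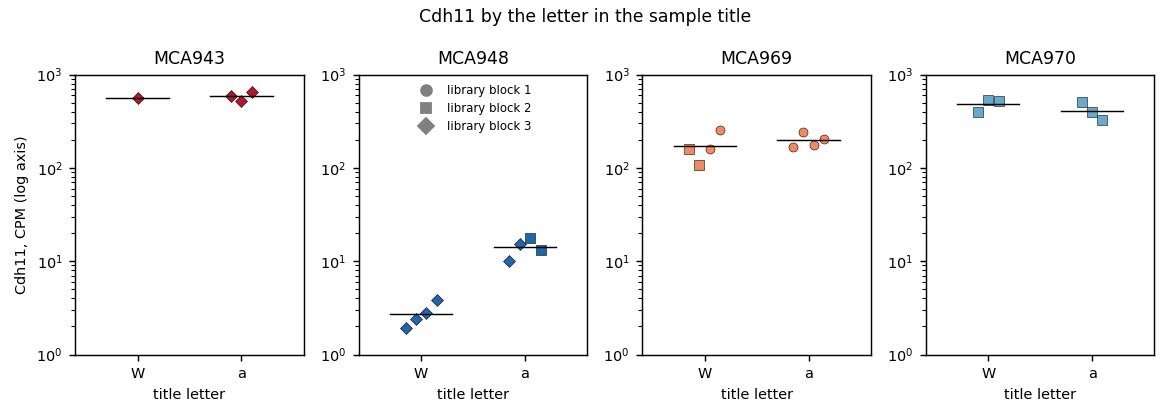
Cdh11 in CPM on a log axis by title letter in the 4 lines with both letters, with 1 point per tumor, bars at the mean and marker shapes for the library block. In MCA948 the W tumors lie at 1.95 to 3.85 CPM and the a tumors at 10.01 to 17.6 CPM, while the letters overlap in MCA969 and MCA970.

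Within lines, 4 relations between a cadherin and the markers of a cell type known to express it were computed on log2 values centred on the line mean (30 tumors, 100000 permutations within lines). Here and below, rho is Spearman's on these centred values. The permutation p-value beside it is for the correlation of their ranks after centring the ranks on the line mean again, a value that is not printed. The relation of Cdh15 with muscle precursor markers was void, since 0 of the 4 markers passed the filter and their median sum was 0 CPM in MCA948, MCA969 and MCA970. Of the other 3, adjusted with it over 4, none passed the threshold. Cdh13 and endothelial markers had r = 0.34 (permutation p = 0.0768, adjusted 0.307) and rho = 0.31 (permutation p = 0.104, adjusted 0.416), and r fell to 0.15 without the 2 tumors farthest from the median of the markers. The endothelial sum includes Cdh5, which was 217 of 275 CPM in MCA970 W-R. Cdh5 varied less in MCA970 than other endothelial genes, so the sum there partly hides their variation. For Cdh1 and keratinocyte markers r was 0.09 and rho -0.03 (permutation p = 0.692 and 0.86, adjusted 0.877 and 0.92), and r was -0.09 without 2 tumors. Cdh19 had at most 6 counts in 20 of the tumors. For Cdh19 and Schwann cell markers r was -0.04 and rho -0.03 (permutation p = 0.877 and 0.92, adjusted 0.877 and 0.92), and r was -0.06 without 2 tumors. Only 3 of 8 keratinocyte and 4 of 7 Schwann cell markers passed the filter, and Sox10 was near 0. These sums measure their cell types poorly, so the relations of Cdh1 and Cdh19 cannot decide whether such cells matter.

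The 5 genes most like each cadherin were taken by Pearson's r of line-centred log2 CPM over the 30 tumors, as a description. For Cdh1 they were Prf1 (perforin, r = 0.76), Klra7 (0.74) and Klrb1b (0.71), which are genes of cytotoxic lymphocytes, with Fmnl1 (0.72) and Bcl2a1d (0.71). Cdh1 had only 2 to 52 counts per tumor in MCA948 and 2 to 23 in MCA969, so counting error enters all its values of r. In MCA970 Cdh1 was at 1.39, 1.10 and 1.53 CPM in the W tumors 1D, 2D and R and at 0.150 to 0.484 CPM in the 3 a tumors. The leukocyte marker sum in the same W tumors was 94.2, 5.52 and 52.5 CPM, and 6.55 to 11.1 CPM in the a tumors. The letters did not overlap for Cdh1 in this line, W being higher, as for 6.99% of all genes, and the W tumor 2D had high Cdh1 with a low leukocyte sum. Over all tumors Cdh1 and leukocyte markers had r = 0.41 (permutation p = 0.0461) and rho = 0.41 (permutation p = 0.0396), and r = 0.50 without the 2 farthest tumors. This relation was added after the values were seen, and over 7 relations its adjusted p-values were 0.152 and 0.139.

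**Figure D4:**
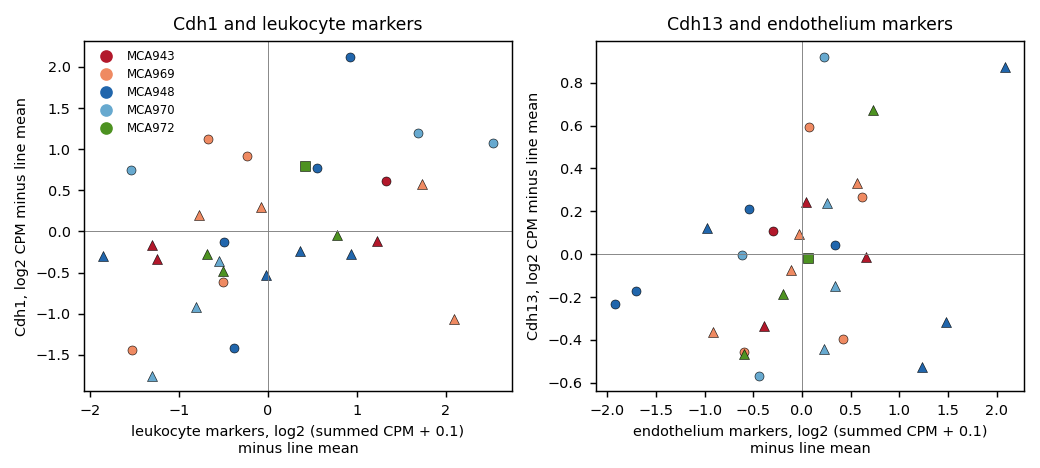
Line-centred log2 levels of Cdh1 against leukocyte markers and of Cdh13 against endothelial markers in 30 tumors, coloured by line, with circles, triangles and squares for title letters W, a and none. The points scatter widely in both panels, with r = 0.41 and r = 0.34.

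For Cdh11 the 5 were Plcb1, the chemokine gene Cxcl12, Fcgrt, Lama2 and Mfap2 (r = 0.82 to 0.83), of which Lama2 and Mfap2 encode extracellular matrix proteins. Within lines Cdh11 spread most in MCA948, from a log2 CPM of 1.00 to 4.14. Its W tumors there reached 1.97 and its a tumors began at 3.33. The next widest range was 6.74 to 7.99, in MCA969. All values of r for Cdh11 thus rest largely on MCA948 and its title letters. Cdh11 and the mesenchymal markers had r = 0.58 (permutation p = 0.00101, adjusted over 7 relations 0.00707) and rho = 0.54 (permutation p = 0.012, adjusted 0.084). Without the 2 farthest tumors r was 0.60. This relation was likewise added after the values were seen, and the adjustment does not cover that choice. The permutation within lines also did not keep the title letters apart, so its p-values are a description. With endothelial markers r was 0.53 (permutation p = 0.087, adjusted 0.152) and rho 0.42 (permutation p = 0.0704, adjusted 0.164), and r was 0.44 without 2 tumors.

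For Cdh10 the first gene was Ctnnd2 (r = 0.90), the delta-catenin already named, followed by Pgm5, C1ql1, Grb10 and Abat (0.80 to 0.86). These values lean on the tumor MCA969 W-2D, at 0.0619 CPM of Cdh10 against 2.15 to 10.7 CPM in the rest of its line. They were not recomputed without it. For Cdh2 the genes were Ctdspl, Tnc (tenascin C), Ccn4, Bcl2 and Slc26a2 (0.80 to 0.84), and for Cdh3 they were Srpx, Fkbp14, Tmem54, Pheta2 and Loxl1, a lysyl oxidase of the matrix (0.77 to 0.81). For Cdh19 they were Cd36, Sorbs2, Epha4, Syt15 and Nr3c2 (0.76 to 0.78), and for Cdh13 Gipc3, Galnt15, Trp53bp2, Cln6 and Npr2 (0.73 to 0.78). The sparsely counted Cdh6 and Cdh15 had Gm42528, Sod3, Col6a5, Cpne4 and Fam78a (0.69 to 0.73) and Gm10250, Hspa8, Emb, Tmem179 and Rpl39-ps (0.73) as theirs. Cdh6, Cdh10, Cdh15 and Cdh19 were near 0 in part of the tumors, so their values of r rest on the lines above the floor. Cdh1 was also sparsely counted in MCA948 and MCA969. Among Cdh1, Cdh2, Cdh3, Cdh11 and Cdh13, which had counts in all 30 tumors, the largest value was that of Cdh2 with Cdh3 (0.51), and the neighbours Cdh1 and Cdh3 had -0.20. MCA969 W-2D was the lowest of its line for both Cdh2 and Cdh3, and Cdh3 had 3 counts in MCA948 W-2G. The value for Cdh2 and Cdh3 was not recomputed without these tumors.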

How the data were processed

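RNA was sequenced from 30 CD45-depleted tumors of 5 lines. The authors aligned reads with STAR 2.5.3a to GRCm38 and counted them with featureCounts, version 1.5.2 in the submitters' processing notes, which also name Picard, and the column names refer to removal of duplicates with molecular identifiers. The strand setting is not given in the sources used here. The table deposited by the authors holds raw counts of 48440 genes, of which 48058 were named from GENCODE mouse release 21.

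Counts were scaled by TMM and filtered by filterByExpr with the line as group (16862 genes kept). All 30 tumors entered 1 robust quasi-likelihood fit in edgeR 4.0.16 on the line (biological coefficient of variation 0.221). Calls required a p-value under 0.05 after Benjamini-Hochberg adjustment over all genes and a log2 fold change of 1 or more in size. The letters were tested over 26 tumors with the line as covariate (16557 genes, adjusted p-value under 0.05). Log2 CPM values used a prior count of 2, and marker sums a pseudocount of 0.1. The group of each tumor came from its title. Whether tumors of a line came from separate mice is not stated for each sample, so p-values measure the spread between these tumors. Depth was 27745104 to 46537062 counts per tumor, and 3 counts was set as the floor, which covers counting error only.

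The cadherins and all lists of genes were chosen with earlier results of these data known. Named were the 10 cadherins, genes of the lists for catenins, processing enzymes, repressors, epithelial regulators, receptors and cell type markers, and the 5 genes most like each cadherin. The marker lists for skeletal muscle fibre (3.25 to 16.9 CPM in sum) and adipocyte (at most 0.196 CPM) were also measured. Promoters came from RefSeq on GRCm38.p6. Alternatives were DESeq2 1.42.0, limma-voom 3.58.1, DESeq2's size factors, no filter, separate fits, the library block or the code in the title as covariate, within-block fits, and leaving out tumors. The fits were tested on simulated data. Scripts ran in R 4.3.3 and in Python 3.11.15 with pandas 2.3.3, scipy 1.17.1, matplotlib 3.10.9 and numpy 2.4.6.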

Additional observations from a re-analysis of the deposited data

Results flagged for a closer look

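Within lines of 4 to 8 tumors, 4 of 45 tests of a cadherin in a line found 1 tumor far from the rest, where chance gives about 1 in 20. Cdh3 was at 0.101 CPM in MCA948 W-2G against a median of 0.834 CPM in the other 7. Cdh6 was at 0.102 CPM, from 3 counts, in MCA943 W-2G against 0 in the other 3, a count at the floor beside zeros, which is not read as a difference. Cdh10 was at 0.0619 CPM in MCA969 W-2D against a median of 2.68 CPM in the other 7. Cdh19 was at 29.0 CPM in MCA972 a-1G against a median of 38.2 CPM in the other 3. The difference of Cdh11 between title letters differed between lines, with an edgeR adjusted p of 0.00641 for the interaction, but one of 0.0853 with the library block and 0.0571 with the code in the title in the model, and of up to 0.0530 without 1 tumor.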

How the results depend on the processing

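Of 2071 recomputed log2 fold changes of cadherins between lines, 0 reversed, 2053 moved by less than their spread and 18 by more. With the library block as a covariate 5 cadherins in place of 8 were called in MCA943 against MCA970 and 5 in place of 8 against MCA972, and list genes went from 8 to 4, from 8 to 4 and, in MCA969 against MCA970, from 5 to 3. In MCA969 against MCA948, 3 in place of 5 cadherins were called in a separate fit and 1 within block 2, where 0 in place of 6 list genes were called (2 tumors against 2). The cause was not tested. DESeq2 called 94 genes between title letters in place of 45, and leaving out 1 tumor gave 14 to 57, with 14 without MCA943 W-2G, the only W tumor of its line. The interaction was called for 3 genes, against 172 with DESeq2, 18 with limma-voom, 6 without a filter, 15 without MCA943 and 0 with the library block. Leaving out 1 tumor gave 1 to 22, with 22 without MCA969 W-2D, 15 without MCA943 W-2G, 11 without MCA948 a-2G, 10 without MCA969 W-R, 9 without MCA948 a-2D, 6 without MCA948 a-1G, 5 without MCA970 W-2D, MCA943 a-1G or MCA948 W-1G, and 1 without MCA948 W-2D. For Cdh11 the adjusted p of the interaction was 0.0853 with the library block, and 0.00124 to 0.0530 without 1 tumor (0.0530 without MCA948 W-2D). The code in the title did not pair the tumors (median r of 0.02 over 29 pairs with the same letter and code, 8 of them over 0.1, against -0.01 over 323 others). With the code as a replicate block, 1 gene was called for the interaction and the adjusted p of Cdh11 was 0.0571. Leaving out 1 tumor gave r of 0.165 to 0.453 for Cdh13 and endothelial markers, -0.0332 to 0.142 for Cdh1 and keratinocyte markers, 0.0904 to 0.280 for Cdh15 and muscle precursor markers (a void relation, with the markers near 0) and -0.161 to 0.0723 for Cdh19 and Schwann cell markers. Counts of 3 or fewer limit the folds of Cdh6, Cdh10, Cdh15 and Cdh19 to bounds. The alternatives for the interaction, except that without MCA943, and those for the list genes were added after seeing the data.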

Other observations

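Cdh5, the cadherin of endothelium, was not one of the 10 genes and was used only as a marker. In MCA970 it was at 211, 248, 217, 252, 236 and 251 CPM in the tumors W-1D, W-2D, W-R, a-1D, a-2D and a-2G. Other endothelial genes in the same tumors varied more, with Pecam1 at 40.3, 109, 20.99, 113, 108 and 119 CPM. Kdr, the main VEGF receptor, was at 14.7, 41.9, 8.43, 44.6, 43.7 and 47.1 CPM. W-1D and W-R were thus low for Pecam1 and Kdr while their Cdh5 stayed above that of every tumor outside MCA970, the highest of which was 126 CPM, in MCA948. Of the other 8 type I and type II cadherins, Cdh12, Cdh18 and Cdh24 passed the filter, and Cdh24 reached 2.64 to 15.7 CPM, with its lowest values in MCA943 (2.64 to 3.13 CPM). Cdh7, Cdh8 and Cdh20 had at most 2 counts in any tumor, Cdh22 at most 8 and Cdh9 at most 15. These genes were singled out after their values were seen.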
